A study of Mus musculus with 22 samples.

Results

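Ribosome-bound RNA of spinal cord astrocytes was compared between injured and uninjured wild-type (WT) mice. The comparison used 8 of the 22 libraries of the study, chosen by their labels alone: 4 hemagglutinin immunoprecipitates (HA IP) from WT mice with spinal cord injury (WT SCI; animals 9596, 9874, 9843 and 9935) and 4 from uninjured WT mice (animals 42, 154, 79 and 65). All were young adult female mGFAP-Cre-RiboTag mice, in which a Cre recombinase driven by a mouse Gfap promoter switches on an HA-tagged ribosomal protein. The injured mice had a severe crush at thoracic level 10 and were sampled 14 days later from the central 3 mm of the lesion, and uninjured mice were matched for sex and age. Each tissue also gave a flow-through library of RNA left behind by the HA antibody, used here only to describe levels. Another 3 HA IP libraries, from injured mice labelled STAT3 KO, of a line that also carries STAT3-LoxP, entered the fit to estimate spread. Tagging follows Cre activity, so any cell with a history of Gfap promoter activity is tagged, not astrocytes alone.

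Astrocytes clear transmitter glutamate and potassium, couple to each other through gap junctions, make cholesterol and long unsaturated fatty acids for neurons, and line blood vessels with their endfeet. After injury they become reactive: they enlarge, raise intermediate filaments such as GFAP and vimentin, and at a crush lesion form a border around a core filled with phagocytes and fibroblasts. RNA on tagged ribosomes reports what these cells are translating, with RNA of other cells carried over to a degree that differs from gene to gene.

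The WT SCI libraries held 31574207 to 46055612 counts and the uninjured libraries 37267334 to 59337089. Rn45s, the row that collects ribosomal RNA precursor reads, took 89.0%, 93.6%, 93.9% and 96.2% of counts in WT SCI animals 9596, 9874, 9843 and 9935, against 12.6%, 15.98%, 24.3% and 26.7% in uninjured animals 42, 154, 79 and 65. All values by animal below follow this order of rising share. Outside Rn45s and 2 further rows that filled with it (Lars2 and Mir6236), 620265 to 2691494 counts were left in WT SCI libraries and 26934866 to 51571785 in uninjured libraries. Flow-through libraries of the same tissues had Rn45s shares of 89.0% to 95.5% in WT SCI and 9.49% to 39.7% in uninjured mice. The share separated the groups completely, so between them it cannot be told apart from injury. Gene-level spread was also wider in injured mice, with a biological coefficient of variation of 74.7% in WT SCI and 24.1% in uninjured libraries.

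**Figure D1:**
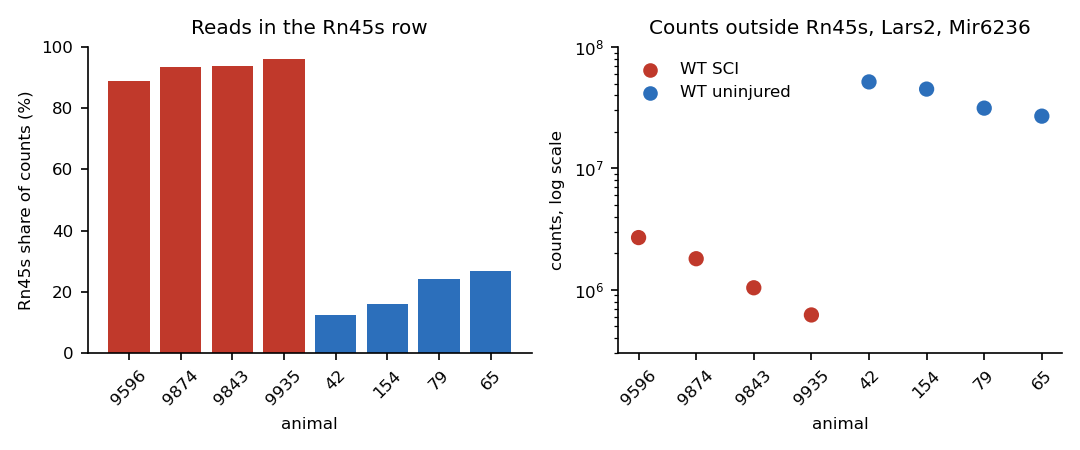
Left, share of all counts in the Rn45s row (%) in each HA IP library; right, counts outside Rn45s, Lars2 and Mir6236 (log scale), with WT SCI animals in red and uninjured animals in blue. The WT SCI libraries sit between 89.0% and 96.2% and keep 620265 to 2691494 other counts, while uninjured libraries sit between 12.6% and 26.7% and keep 26934866 to 51571785.

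Of 14764 genes tested, 3938 (26.7%) passed an adjusted p of 0.05 in edgeR's quasi-likelihood test (two-sided, Benjamini-Hochberg adjustment over all genes tested). Of all genes tested, 2331 (15.8%) were higher in WT SCI and 1607 (10.9%) were lower. These shares are the background against which each gene group below is read. The median log2 fold change of all genes tested was 0.00017, and 3191 of the 3938 had no overlap between the 4 WT SCI and the 4 uninjured libraries. Among all 14764, called or not, 1904 with a positive and 2991 with a negative log2 fold change had no such overlap. Lack of overlap was part of a rule that named some genes below, so for them it is not a further result. Gpr17, Lyz2, Bst2, Insig1, Acsl6, Etfa and Id2 are among these. Fitted on the 8 WT libraries alone, the split of called genes was 1936 higher and 2041 lower. Leaving out uninjured animal 65 or 154 left 1059 or 1043 genes called lower. "Rose" and "fell" are used below for genes that passed this test, log2 fold changes are WT SCI minus uninjured, and levels are CPM, counts scaled to a library size adjusted by edgeR's TMM method. They describe relative amounts of RNA in a pulldown, so fewer cells of a type and less RNA per cell cannot be told apart.

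The astrocyte label was checked with 16 defining markers, all detected. Summed over the list, as CPM of the counts outside the 3 ribosomal-read rows, they reached 29119.6 to 42348 in WT SCI and 43773 to 51053 in uninjured HA IP libraries, against 9565 to 14974 in WT SCI and 4714 to 6073 in uninjured flow-through. The median marker was 3.85 times as abundant in HA IP as in flow-through in WT SCI tissue and 16.8 times in uninjured tissue. The ratio was above 1 in WT SCI tissue for every marker but Glul, glutamine synthetase, at 0.966. Gfap itself rose (log2 fold change 1.62, adjusted p = 3.41e-04), as did S100b (0.80, adjusted p = 0.0213), while 7 of the 16 fell. Risen markers numbered 1 without uninjured animal 42 or 154.

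Markers of other cells were present in the same libraries and moved with injury. Of 20 microglia and macrophage markers 17 rose, and their sum was 3694 to 15025 in WT SCI and 144 to 311 in uninjured HA IP, against 18848 to 46487 in WT SCI and 448 to 928 in uninjured flow-through. Cd163, a scavenger receptor of macrophages, fell, with 1 count in the 4 WT SCI libraries and 605 in the uninjured ones, a call lost without WT SCI animal 9596 (adjusted p = 0.064) or uninjured animal 42 (adjusted p = 0.0539). Each of the 17 that rose was below its flow-through level in WT SCI, and the median HA IP over flow-through ratio of the list was 0.274 in WT SCI and 0.324 in uninjured tissue. Oligodendrocyte precursor markers differed from this: 9 of 10 rose, all 9 were above flow-through in WT SCI, and the median ratio was 5.57 in WT SCI and 1.97 in uninjured tissue. Gpr17, a receptor of precursors committed to become oligodendrocytes, had 59.3, 96.0, 68.7 and 63.9 CPM in the WT SCI libraries, against 10.8, 11.1, 13.6 and 14.1 CPM in the uninjured libraries. No WT SCI library overlapped an uninjured one (log2 fold change 2.54 ± 0.29 (SE), adjusted p = 4.46e-06). Of 13 myelin genes 9 rose, among them Mbp (2.80, adjusted p = 6.91e-07) and Cldn11 (2.80, adjusted p = 1.04e-06), and Aspa, aspartoacylase, fell (-1.01, adjusted p = 0.0397). That fall was not called at equal depth, in the fit with a variance for each group (voom), or without WT SCI animal 9935 or 9874 or any 1 uninjured animal. The myelin list sum was 32854 to 52262 in WT SCI and 8976 to 11976 in uninjured HA IP. In flow-through it was 23534 to 28398 in WT SCI and 22033 to 25231 in uninjured tissue. In HA IP it was above the astrocyte marker sum in WT SCI animals 9596, 9874 and 9843 and below it in 9935. The median ratio of the myelin list was 1.36 in WT SCI and 0.510 in uninjured tissue. Neuron genes went the other way: 7 of 15 fell, with a list sum of 693 to 1479.8 in WT SCI and 2791 to 5059 in uninjured HA IP, and the median ratio was 0.281 in WT SCI and 0.180 in uninjured tissue. Fallen neuron genes numbered 4 without WT SCI animal 9874 or uninjured animal 42 or 154. Of 10 tested fibroblast and pericyte markers 5 rose, including Pdgfra, which precursors share, and the list sum was 263 to 581 in WT SCI and 135 to 153 in uninjured HA IP. Of 7 tested Schwann cell markers 2 rose (Egr2 and Sox10), and of 10 ependymal markers 1 rose (Foxj1) and 1 fell (Spag6, with no count in WT SCI; adjusted p = 0.0267). The Spag6 call was lost without WT SCI animal 9874 (adjusted p = 0.0509) or 9596 (adjusted p = 0.0658) or uninjured animal 154 (adjusted p = 0.051). Endothelial (1.86 to 25.8 in WT SCI and 1.499 to 3.80 in uninjured), neutrophil and monocyte (20.4 to 70.3 in WT SCI and 4.05 to 4.44 in uninjured), lymphocyte (3.85 to 11.7 in WT SCI and 0.504 to 1.82 in uninjured) and red blood cell sums (at most 0.372 in WT SCI and 0.606 in uninjured) were low in HA IP, and 7 of the 8 red blood cell genes were at 0 in every WT SCI library. The part of carried-over RNA in each result below was not tested, so HA IP over flow-through ratios are given beside the groups.

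**Figure D2:**
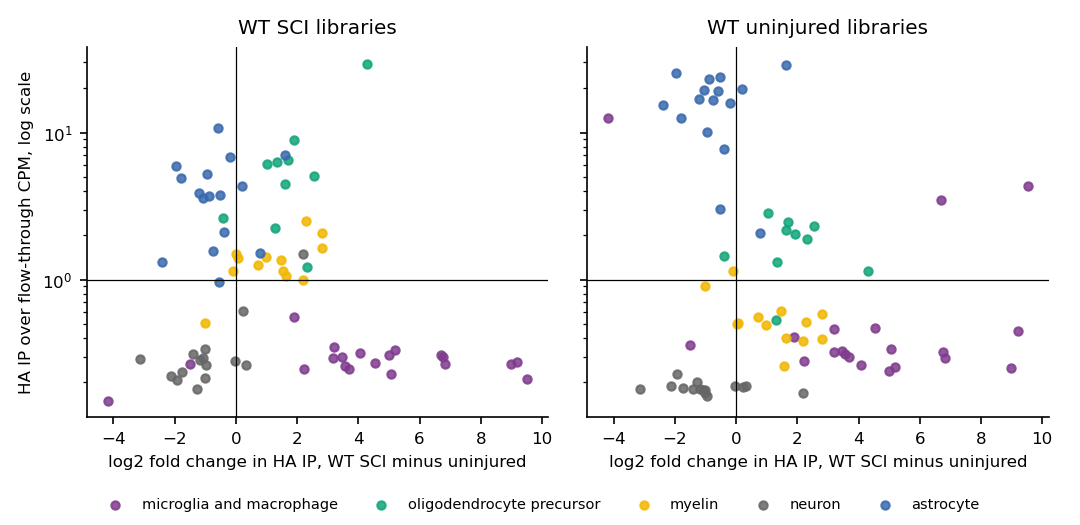
HA IP over flow-through level (CPM outside the ribosomal-read rows, log scale) of cell markers in WT SCI (left) and uninjured tissue (right). The x axis is the log2 fold change in HA IP, WT SCI minus uninjured. Each point is a gene, coloured by cell type. Tested markers of microglia and macrophages, oligodendrocyte precursors, myelin, neurons and astrocytes are drawn, and those of other cell types are not. Microglia and macrophage genes that rose lie well below the line at 1 in WT SCI tissue, with a list median of 0.274, while oligodendrocyte precursor genes lie above it, with a list median of 5.57.

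Most gene groups split by direction. Groups of immune response, lysosome, cytoskeleton, matrix and cell division had shares of risen members above the 15.8% background. Groups of sterol and fatty acid metabolism, transport, receptors and the respiratory chain had shares of fallen members above the 10.9% background. All group counts below use the fit over all genes, and the medians are of tested members.

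**Figure D3:**
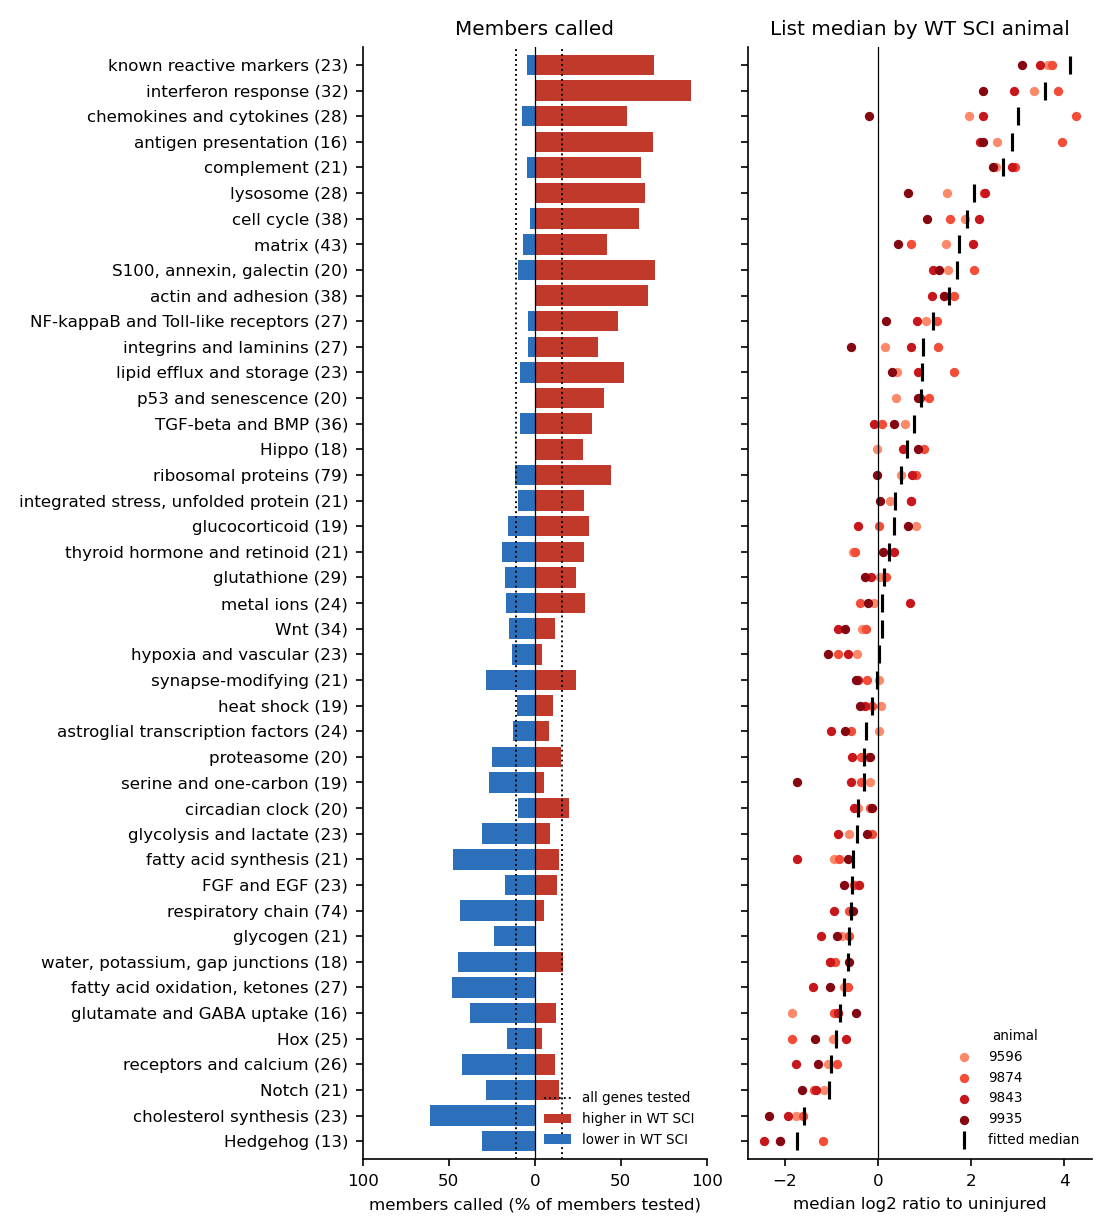
Left, share of tested members called higher (red, to the right) or lower (blue, to the left) in WT SCI for each of 43 gene lists, with the number tested in brackets and dotted lines at 15.8% and 10.9%, the shares among all genes tested. Right, the median log2 ratio of each list in each WT SCI animal to the uninjured mean (points, darker with rising Rn45s share; on log2 CPM values to which a prior count of 2 was added) and the fitted median (bar). The interferon list has the highest share of risen members and the cholesterol synthesis list the highest share of fallen members.

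Among genes with a mean log2 CPM of at least 3, no overlap between groups and the same call at equal depth (below), 705 rose. Best-known reactive genes and unnamed genes were left out of this count. Of the 705, 27 were also at least 4 times as abundant in HA IP as in flow-through after injury. Of 490 that fell under the same conditions, 125 were at least 4 times as abundant in HA IP in uninjured tissue. The 10 with the highest fold change among the 27 that rose include the following 7. Kcne1l, an accessory subunit of potassium channels (chrX:142304753-142306198; coordinates here and below are RefSeq, GRCm38.p6), had 103, 202, 121 and 299.8 CPM in the WT SCI libraries, against 18.2, 20.0, 27.1 and 31.7 CPM in the uninjured libraries. All WT SCI libraries lay above all uninjured ones (log2 fold change 2.90 ± 0.34 (SE), adjusted p = 6.64e-06), and the HA IP over flow-through ratio was 10.7 in WT SCI and 15.0 in uninjured tissue. Mt1 (chr8:94178883-94180327), a metallothionein that binds zinc and copper, had 3197, 4443, 2884 and 4925 CPM in the WT SCI libraries, against 169, 288, 332 and 393 CPM in the uninjured libraries, with no overlap (log2 fold change 3.71 ± 0.42 (SE), adjusted p = 4.46e-06). Its close paralog Mt2 averaged 2621 ± 459 CPM in WT SCI and 305 ± 78.7 CPM in uninjured libraries (SD, n = 4 each; log2 fold change 3.11 ± 0.36 (SE), adjusted p = 4.82e-06), and counts of these near-identical genes could be shared. S100a6, a small calcium-binding protein (chr3:90612894-90614414), had 171, 248, 108 and 177 CPM in the WT SCI libraries, against 10.4, 14.4, 17.9 and 20.9 CPM in the uninjured libraries, again without overlap (log2 fold change 3.47 ± 0.37 (SE), adjusted p = 2.33e-06). Igfbp7, a secreted binding protein of insulin-like growth factors, had 25.7, 129.6, 30.3 and 43.7 CPM in the WT SCI libraries, against 3.17, 2.66, 4.30 and 4.24 CPM in the uninjured libraries. Animal 9874 was highest, and without it the log2 fold change of 4.00 ± 0.47 (SE; adjusted p = 6.31e-06) became 3.20. Ehd1, an ATPase of endocytic recycling, and Ppfibp1, a liprin of adhesion sites, rose by 2.59 (adjusted p = 8.67e-05) and 2.99 (adjusted p = 5.58e-06). For Ehd1 the HA IP over flow-through ratio was 5.07 in WT SCI and 0.766 in uninjured tissue, for Ppfibp1 it was 5.46 in WT SCI and 2.79 in uninjured tissue.

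**Figure D4:**
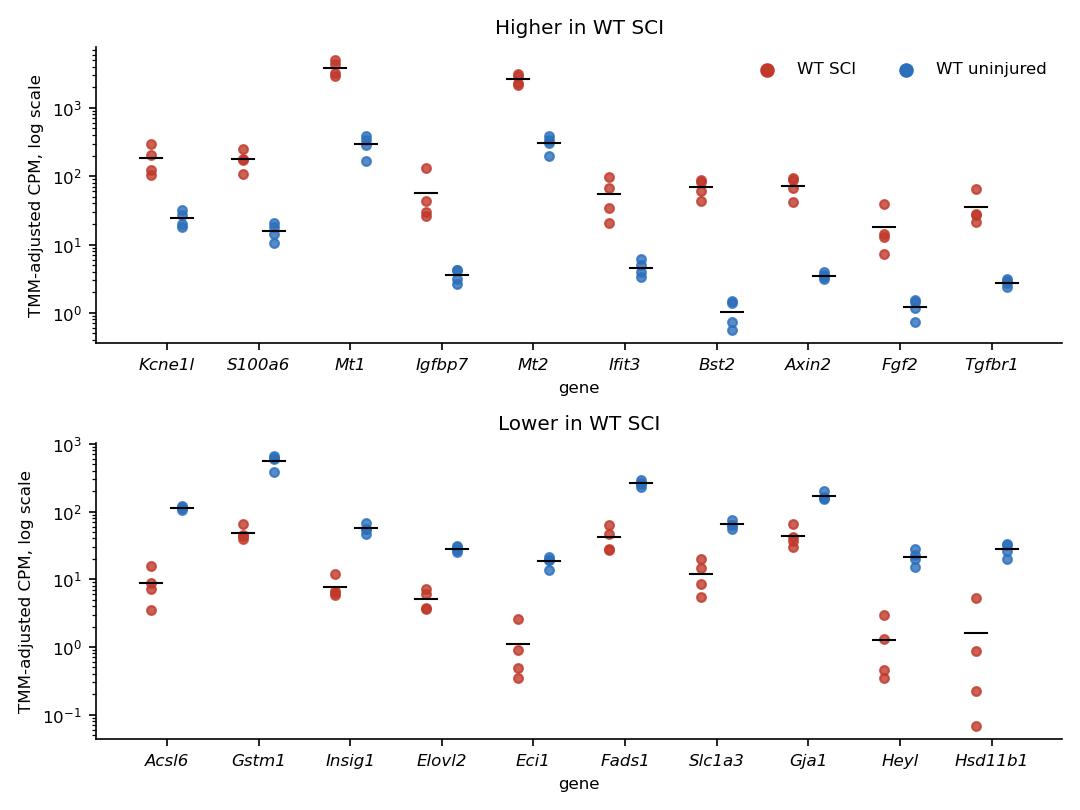
TMM-adjusted CPM (log scale) of 10 genes that rose (top) and 10 that fell (bottom) in each HA IP library; WT SCI points are red and left, uninjured points are blue and right, and the black bar is the group mean (n = 4 each). WT SCI and uninjured points are apart for every gene shown, which was part of a rule that named some of them.

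Among the reactive astrocyte genes best known from earlier work, 16 of 23 rose (median 4.13). Timp1, an inhibitor of matrix metalloproteinases, had 50.9, 106, 61.7 and 105 CPM in the WT SCI libraries, against 0.376, 0.293, 0.496 and 0.318 CPM in the uninjured libraries (log2 fold change 7.76 ± 0.47 (SE), adjusted p = 7.23e-09). Hspb1, a small heat shock protein, had 62.9, 102, 52.5 and 91.9 CPM in the WT SCI libraries, against 1.58, 3.15, 2.93 and 2.85 CPM in the uninjured libraries (log2 fold change 4.88 ± 0.36 (SE), adjusted p = 5.79e-08). No WT SCI library overlapped an uninjured one for either gene. The 6 members that did not pass were Cd44 (0.45, adjusted p = 0.371), C3 (0.38, adjusted p = 0.422), Cp (-0.10, adjusted p = 0.923), Emp1 (0.60, adjusted p = 0.395), Osmr (1.24, adjusted p = 0.234) and Aspg (2.29, adjusted p = 0.0788). S100a10 fell (-1.37, adjusted p = 0.021), but not without uninjured animal 65 (-1.25, adjusted p = 0.064), uninjured animal 79 (-1.27, adjusted p = 0.0609) or WT SCI animal 9843 (-1.21, adjusted p = 0.0546).

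Of the pathway lists, the interferon response had the highest share of risen members: 29 of 32 tested genes rose, with a median log2 fold change of 3.59 and list medians of 3.35, 3.87, 2.92 and 2.25 in animals 9596, 9874, 9843 and 9935. Interferons are cytokines that switch on antiviral genes. Bst2, tetherin, which holds budding virus on the cell surface, had 82.4, 88.1, 61.0 and 43.0 CPM in the WT SCI libraries, against 0.746, 0.569, 1.37 and 1.48 CPM in the uninjured libraries. The groups were far apart (log2 fold change 6.05 ± 0.44 (SE), adjusted p = 4.30e-08), and its HA IP over flow-through ratio was 0.924 in WT SCI and 6.47 in uninjured tissue. Ifit3, an antiviral RNA-binding protein, had 67.5, 98.1, 20.4 and 34.5 CPM in the WT SCI libraries, against 3.30, 4.98, 6.07 and 3.92 CPM in the uninjured libraries (log2 fold change 3.60 ± 0.45 (SE), adjusted p = 1.32e-05), and stayed enriched in HA IP with a ratio of 4.52 in WT SCI and 4.81 in uninjured tissue. Irf8, a transcription factor of phagocytes, had a log2 fold change of 4.97 (adjusted p = 9.26e-07), which became 4.26 at equal depth, with a ratio of 0.287 in WT SCI and 0.291 in uninjured tissue. Over the list 10 of the 29 genes that rose were at or above their flow-through level in WT SCI, against 51.6% of all genes called higher.

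Promoters were searched on both strands, from 250 bases before to 50 after each start site, for the letter patterns of known regulators (RefSeq, GRCm38.p6; 27025 promoters, 11086 of them of tested genes). The interferon response element is written here as GAAANNGAA, the STAT site as TTCNNNGAA and the sterol response element as TCACNCCAC. The 250 bases before the start are shown 5′ to 3′ for the called member of each list with the smallest p among those whose promoter held the pattern, with the pattern in capitals. The 2 matches in Bst2 overlap. Hmgcs1 and Tgm1 are described for this reason alone.
Bst2 promoter, chr8:71537473-71537722, - strand: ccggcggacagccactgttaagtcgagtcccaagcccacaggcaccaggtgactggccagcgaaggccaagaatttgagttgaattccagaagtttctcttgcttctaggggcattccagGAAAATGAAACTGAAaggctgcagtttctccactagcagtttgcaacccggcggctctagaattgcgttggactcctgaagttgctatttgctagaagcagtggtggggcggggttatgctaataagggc
Tgm1 promoter, chr14:55713493-55713742, - strand: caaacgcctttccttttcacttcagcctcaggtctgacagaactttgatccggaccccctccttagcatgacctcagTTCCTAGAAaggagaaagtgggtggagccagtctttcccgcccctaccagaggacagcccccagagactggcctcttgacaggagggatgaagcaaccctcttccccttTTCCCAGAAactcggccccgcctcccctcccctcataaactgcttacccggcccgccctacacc
Hmgcs1 promoter, chr13:119690101-119690350, + strand: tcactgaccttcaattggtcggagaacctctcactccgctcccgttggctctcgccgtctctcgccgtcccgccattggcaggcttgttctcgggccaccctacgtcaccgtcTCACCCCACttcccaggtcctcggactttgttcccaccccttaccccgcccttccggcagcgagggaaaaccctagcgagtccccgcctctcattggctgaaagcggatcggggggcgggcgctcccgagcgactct
GAAANNGAA stood in 16 of 24 interferon list promoters, against 8.57% of all promoters, 8.67% of genes called higher and 7.50% of genes called lower. TTCNNNGAA stood in 5 of 21 known reactive genes and 8.47% of all promoters, and TCACNCCAC in 1 of 16 cholesterol synthesis genes and 1.22% of all promoters. TGACNNNGC, a core of the antioxidant response element, stood in 7 of 24 glutathione genes and 12.5% of all promoters, and TGCNCNC, a core of the metal response element, in 13 of 19 metal ion genes and 50.4% of all. CCAAT stood in 34.2% of genes called higher, 41.9% of genes called lower and 37.9% of all. CACGTG stood in 9.07% of genes called higher, 9.48% of genes called lower and 7.24% of all. The called genes and list members counted here are all tested genes. Among promoters of tested genes GAAANNGAA stood in 7.03%, TTCNNNGAA in 6.77%, TCACNCCAC in 1.14% and TGACNNNGC in 14.8%. TGCNCNC stood in 60.5% of them, CCAAT in 38.3% and CACGTG in 9.88%, which is above both called shares of CACGTG. A match describes letters and not a bound site. Tgm1, a transglutaminase of the reactive list, had 9.53, 42.5, 9.59 and 4.89 CPM in the WT SCI libraries, against 0.0296, 0.0453, 0.0365 and 0.00612 CPM in the uninjured libraries, with animal 9874 highest and no overlap (log2 fold change 9.06 ± 0.95 (SE), adjusted p = 2.06e-06).

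Other immune groups rose with phagocyte markers and were mostly below their flow-through level. Lyz2, lysozyme of phagocytes (chr10:117277541-117282272), had 492, 706, 1681 and 324 CPM in the WT SCI libraries, against 1.38, 1.00, 2.10 and 1.85 CPM in the uninjured libraries. Every WT SCI library was above every uninjured one (log2 fold change 8.98 ± 0.53 (SE), adjusted p = 7.23e-09; 8.33 without animal 9843), and the HA IP over flow-through ratio was 0.269 in WT SCI and 0.249 in uninjured tissue. C1qa, a chain of complement C1q, had 94.6, 234, 153 and 94.8 CPM in the WT SCI libraries, against 0.633, 0.931, 1.44 and 2.30 CPM in the uninjured libraries (log2 fold change 6.77 ± 0.49 (SE), adjusted p = 4.30e-08; ratio 0.297 in WT SCI and 0.321 in uninjured tissue). Gpnmb, a membrane glycoprotein of lipid-laden phagocytes, had a log2 fold change of 6.71 (adjusted p = 6.12e-08) and a ratio of 0.308 in WT SCI and 3.46 in uninjured tissue. Mpeg1, Laptm5 and Fcer1g, all genes of phagocytes, rose by 5.91, 5.29 and 4.99, with ratios in WT SCI of 0.299, 0.247 and 0.308.

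Complement genes rose in 13 of 21 (median 2.67; 4.09 over 13 genes at equal depth), and 4 of the 13 were at or above flow-through. Of 16 antigen presentation genes 11 rose (median 2.88), each of them below flow-through. H2-Ab1, an MHC class II chain, had 4.18, 20.9, 4.88 and 3.26 CPM in the WT SCI libraries, against 0.0680, 0.115, 0.104 and 0.165 CPM in the uninjured libraries. Animal 9874 was highest (log2 fold change 6.24 ± 0.59 (SE), adjusted p = 8.44e-07; 5.22 without it). Chemokine and cytokine genes rose in 15 of 28 (median 3.01), but in 8 of 20 on the 8 WT libraries alone (median 0.78) and 7 of 15 at equal depth. By animal the list medians were 1.95, 4.26, 2.26 and -0.20 in 9596, 9874, 9843 and 9935. Ccl9 and Cxcl16 rose by 5.81 and 4.63, with ratios in WT SCI of 0.184 and 0.268. In this list Cntfr, the receptor subunit for ciliary neurotrophic factor, fell: it had 9.74, 12.7, 14.6 and 8.47 CPM in the WT SCI libraries, against 47.1, 53.8, 55.9 and 48.2 CPM in the uninjured libraries (log2 fold change -2.16 ± 0.26 (SE), adjusted p = 8.69e-06). The alarmin Il33 fell too (-1.04, adjusted p = 0.0102). Of 27 NF-kappaB and Toll-like receptor genes 13 rose (median 1.18; 8 of 15 at equal depth), with 5 of the 13 at or above flow-through. Il1r1, the interleukin 1 receptor, rose by 4.30 (adjusted p = 4.85e-04; 3.46 without animal 9935) and had a ratio of 1.99 in WT SCI and 0.565 in uninjured tissue. Fallen members numbered 4 without WT SCI animal 9596. Tlr3, the receptor for double-stranded RNA, was the member that fell: 15.98, 2.49, 6.28 and 2.28 CPM in the WT SCI libraries, against 26.3, 25.04, 28.8 and 31.7 CPM in the uninjured libraries. The groups did not overlap (log2 fold change -1.98 ± 0.55 (SE), adjusted p = 0.0127; -2.90 without animal 9596), and its ratio was 1.20 in WT SCI and 10.0 in uninjured tissue. Lysosome genes rose in 18 of 28 (median 2.05), and 1 of the 18 were at or above flow-through. Ctsd, cathepsin D, had 941, 1783, 2119.9 and 941 CPM in the WT SCI libraries, against 65.6, 62.6, 76.7 and 70.4 CPM in the uninjured libraries (log2 fold change 4.39 ± 0.32 (SE), adjusted p = 5.26e-08), with a ratio of 0.282 in WT SCI and 0.952 in uninjured tissue.

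Of the pathway lists, cholesterol synthesis had the highest share of fallen members: 14 of 23 fell. All 14 of them were at or above flow-through in uninjured tissue, against 60.3% of all genes called lower. Their median HA IP over flow-through ratio in uninjured tissue was 1.94, against 1.27 for all genes called lower. The fitted median log2 fold change of the list was -1.59, and list medians were -1.75, -1.60, -1.93 and -2.33 in animals 9596, 9874, 9843 and 9935. Insig1, which holds the sterol-sensing complex in the endoplasmic reticulum and is itself made when sterol synthesis is on, had 12.1, 5.77, 6.63 and 6.19 CPM in the WT SCI libraries, against 68.3, 46.7, 55.4 and 54.4 CPM in the uninjured libraries (log2 fold change -2.84 ± 0.32 (SE), adjusted p = 4.64e-06). Idi1, which isomerises the isoprenoid building block, had 0.206, 0.226, 0.523 and 0 CPM in the WT SCI libraries, against 10.4, 8.13, 8.05 and 9.09 CPM in the uninjured libraries, from 8 counts in all 4 WT SCI libraries (log2 fold change -5.14 ± 0.60 (SE), adjusted p = 6.64e-06). Hmgcs1, whose promoter is shown above and which is an early synthase of the pathway, had 66.1, 40.3, 52.1 and 59.6 CPM in the WT SCI libraries, against 111, 125, 109 and 147 CPM in the uninjured libraries (log2 fold change -1.18 ± 0.26 (SE), adjusted p = 0.00234). All WT SCI libraries were below all uninjured ones for these 3 genes.

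Lipid efflux and storage ran opposite: 12 of 23 rose and 2 fell (median 0.94), with 2 of the 12 at or above flow-through. Abca1, the pump that loads cholesterol on apolipoproteins, had 41.0, 52.0, 48.0 and 34.9 CPM in the WT SCI libraries, against 9.24, 6.51, 7.82 and 7.70 CPM in the uninjured libraries (log2 fold change 2.49 ± 0.25 (SE), adjusted p = 1.40e-06), with a ratio of 0.610 in WT SCI and 3.59 in uninjured tissue. Apod, an apolipoprotein of glia, had 588, 1017, 648 and 618 CPM in the WT SCI libraries, against 52.6, 85.6, 77.7 and 59.6 CPM in the uninjured libraries (log2 fold change 3.38 ± 0.34 (SE), adjusted p = 1.40e-06), with a ratio of 2.20 in WT SCI and 0.265 in uninjured tissue. Fabp7 and Fabp5, fatty acid carriers, fell by 1.62 and 1.29 on the log2 scale. Of 21 fatty acid synthesis and activation genes 10 fell and 3 rose (median -0.53), and the 10 that fell had a median HA IP over flow-through ratio of 6.35 in uninjured tissue. Acsl6, which activates long-chain fatty acids such as docosahexaenoate, had 7.27, 15.5, 3.49 and 8.80 CPM in the WT SCI libraries, against 116, 106, 113 and 119.6 CPM in the uninjured libraries (log2 fold change -3.68 ± 0.35 (SE), adjusted p = 8.44e-07). Fads1, a desaturase of polyunsaturated fatty acid synthesis, had 47.2, 63.3, 26.9 and 28.0 CPM in the WT SCI libraries, against 289, 231, 255 and 266 CPM in the uninjured libraries (log2 fold change -2.65 ± 0.28 (SE), adjusted p = 2.43e-06). Elovl2, the elongase of the same route, had 3.70, 7.13, 6.10 and 3.58 CPM in the WT SCI libraries, against 31.4, 30.4, 25.04 and 26.8 CPM in the uninjured libraries (log2 fold change -2.46 ± 0.31 (SE), adjusted p = 1.24e-05). WT SCI libraries lay below uninjured ones without overlap in these 3 genes. The related activating enzymes Acsl1 and Acsl5 rose by 1.97 and 1.60.

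Fatty acid oxidation and ketone genes fell in 13 of 27 (median -0.74), and the fallen members had a median ratio of 5.03 in uninjured tissue. Etfa, which passes electrons from acyl-CoA dehydrogenases to the respiratory chain, had 4.66, 2.71, 7.50 and 3.91 CPM in the WT SCI libraries, against 34.1, 35.8, 40.6 and 44.5 CPM in the uninjured libraries (log2 fold change -3.05 ± 0.35 (SE), adjusted p = 4.57e-06). Eci1, an isomerase for unsaturated fatty acids, had 0.480, 0.905, 0.349 and 2.61 CPM in the WT SCI libraries, against 13.9, 18.9, 21.5 and 19.5 CPM in the uninjured libraries (log2 fold change -4.35 ± 0.53 (SE), adjusted p = 9.75e-06; -4.97 without animal 9935). Both were lower in all 4 WT SCI libraries than in any uninjured one. Respiratory chain subunits fell in 32 of 74 and rose in 4 (median -0.59), and 19 fell in the voom fit. The ATP synthase subunits Atp5j and Atp5c1 had log2 fold changes of -2.84 (adjusted p = 1.40e-06) and -2.75 (adjusted p = 1.79e-06), while complex I subunits Ndufb7 and Ndufa2 rose by 1.29 and 1.21. Risen subunits numbered 2 without uninjured animal 42. Glycolysis and lactate genes fell in 7 of 23 (median -0.45). Gapdh had 96.9, 158, 89.3 and 95.1 CPM in the WT SCI libraries, against 425, 557, 663 and 643 CPM in the uninjured libraries (log2 fold change -2.38 ± 0.30 (SE), adjusted p = 1.53e-05), with animal 9874 highest among the injured. Hk2, the hexokinase isoform of growing and inflammatory cells, rose by 4.91 (adjusted p = 1.31e-05). Glycogen genes fell in 5 of 21 (median -0.63), and in 8 of 20 with the ribosomal-read rows removed. Fallen glycogen genes numbered 3 without uninjured animal 65 and 8 without WT SCI animal 9874.

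Genes of transmitter clearance fell in 6 of 16 and rose in 2 (median -0.82). Slc1a3, the glutamate transporter GLAST (chr15:8634124-8710807), had 8.43, 19.7, 14.6 and 5.54 CPM in the WT SCI libraries, against 63.2, 76.1, 55.1 and 63.9 CPM in the uninjured libraries. The groups did not overlap (log2 fold change -2.40 ± 0.34 (SE), adjusted p = 4.38e-05), and its HA IP over flow-through ratio was 1.33 in WT SCI and 15.4 in uninjured tissue. Glud1, glutamate dehydrogenase, had 104, 93.0, 59.8 and 103 CPM in the WT SCI libraries, against 445, 379.7, 423 and 501 CPM in the uninjured libraries (log2 fold change -2.28 ± 0.26 (SE), adjusted p = 4.18e-06). The other main glutamate transporter of astrocytes, Slc1a2, did not pass (-0.87, adjusted p = 0.0816), and was picked after its value was seen. Slc1a1, a glutamate transporter known best from neurons, rose (1.86, adjusted p = 0.00219). Of 18 water, potassium and gap junction genes 8 fell and 3 rose (median -0.64). Gja1, connexin 43 (chr10:56377300-56390419), had 30.1, 37.2, 42.5 and 66.5 CPM in the WT SCI libraries, against 204, 158, 151 and 162 CPM in the uninjured libraries (log2 fold change -1.95 ± 0.27 (SE), adjusted p = 3.03e-05), with a ratio of 5.97 in WT SCI and 25.6 in uninjured tissue. Its partner Gjb6, connexin 30, fell by 1.79 (adjusted p = 3.23e-05). Slc12a2, the sodium, potassium and chloride cotransporter, rose: it had 63.2, 39.8, 36.6 and 35.2 CPM in the WT SCI libraries, against 16.4, 16.01, 16.6 and 12.4 CPM in the uninjured libraries, without overlap (log2 fold change 1.52 ± 0.27 (SE), adjusted p = 3.52e-04). Members that rose numbered 1 without uninjured animal 42, 79, 65 or 154. Receptors and calcium release genes fell in 11 of 26 and rose in 3 (median -1.01). S1pr1, a sphingosine 1-phosphate receptor, had 10.4, 10.97, 15.9 and 18.6 CPM in the WT SCI libraries, against 77.0, 80.4, 89.7 and 86.5 CPM in the uninjured libraries (log2 fold change -2.60 ± 0.28 (SE), adjusted p = 3.10e-06). Ntsr2, the glial neurotensin receptor, and Gabra2, a GABA-A receptor subunit, fell by 2.04 and 2.87. The lysophosphatidic acid receptor Lpar1 and the calcium release channel Itpr2 rose by 1.73 and 1.64. Neuron markers fell in the same libraries, and their part in these falls was not tested. The members that fell here had median ratios of 8.44, 17.2 and 8.11 in uninjured tissue for the 3 lists in this order, and the neuron markers that fell had 0.180.

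Signalling pathways of development moved unevenly. Notch genes, in which a receptor cut at the membrane drives Hes and Hey repressors, fell in 6 of 21 and rose in 3 (median -1.04; -1.77 over 13 genes at equal depth). Heyl, a target of the pathway, had 2.95, 0.452, 0.349 and 1.30 CPM in the WT SCI libraries, against 20.2, 15.0, 28.3 and 22.7 CPM in the uninjured libraries (log2 fold change -3.97 ± 0.54 (SE), adjusted p = 2.76e-05; -5.17 without animal 9596), and Hey1 had 10.97, 17.8, 11.7 and 7.17 CPM in the WT SCI libraries, against 48.0, 40.9, 59.7 and 53.8 CPM in the uninjured libraries (log2 fold change -2.07 ± 0.31 (SE), adjusted p = 7.52e-05). WT SCI libraries were below uninjured ones in both. Notch4 rose (3.21, adjusted p = 0.0064), but not without animal 9843 (1.97, adjusted p = 0.0557). Of 13 Hedgehog genes 4 fell (median -1.73): Gli1, Gli2 and Gli3, the transcription factors of the pathway, and the co-receptor Boc. Fallen Hedgehog genes numbered 2 without WT SCI animal 9596 or uninjured animal 42, 79, 65 or 154. At equal depth 1 of 8 fell (median -0.92), and in the voom fit 7 fell. Gli3 had 1.85, 4.30, 1.05 and 0.326 CPM in the WT SCI libraries, against 9.20, 9.01, 7.92 and 10.0 CPM in the uninjured libraries (log2 fold change -2.16 ± 0.49 (SE), adjusted p = 0.00338; -2.86 without animal 9874). Gli1 had 3 counts in all 4 WT SCI libraries and 1588 in the uninjured ones (adjusted p = 0.00693). Wnt genes had 4 members that rose and 5 that fell of 34, near the background. On the 8 WT libraries alone 2 rose, and in the voom fit 1 rose and 2 fell. Risen Wnt members numbered 1 without uninjured animal 79 or 65 and 2 without uninjured animal 154. Fallen Wnt members numbered 3 without uninjured animal 42 or 154. Axin2, a feedback target of the pathway (chr11:108917828-108950783), had 41.5, 93.3, 66.4 and 87.7 CPM in the WT SCI libraries, against 3.33, 3.16, 3.93 and 3.53 CPM in the uninjured libraries. Its groups were far apart (log2 fold change 4.37 ± 0.48 (SE), adjusted p = 3.06e-06), and its ratio was 0.746 in WT SCI and 0.572 in uninjured tissue. The ligand Wnt7a and beta-catenin, Ctnnb1, fell by 2.27 (adjusted p = 0.00252) and 1.11 (adjusted p = 0.00332).

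TGF-beta and BMP genes rose in 12 of 36 and fell in 3 (median 0.78; 0.38 in the voom fit). Tgfbr1, the type I receptor of TGF-beta, had 21.5, 28.2, 64.2 and 27.0 CPM in the WT SCI libraries, against 3.13, 2.35, 2.88 and 2.71 CPM in the uninjured libraries, with animal 9843 highest (log2 fold change 3.67 ± 0.38 (SE), adjusted p = 1.92e-06) and a ratio of 0.399 in WT SCI and 0.755 in uninjured tissue. Bmp4, a ligand also made by oligodendrocyte precursors, had 16.5, 24.7, 12.7 and 4.24 CPM in the WT SCI libraries, against 0.654, 0.412, 0.975 and 0.961 CPM in the uninjured libraries (log2 fold change 4.30 ± 0.51 (SE), adjusted p = 7.84e-06), and its ratio was 29.4 in WT SCI and 1.15 in uninjured tissue. Id2, an inhibitor of helix-loop-helix factors and a target of BMP, had 4.73, 7.13, 10.5 and 16.6 CPM in the WT SCI libraries, against 78.7, 54.2, 113 and 114 CPM in the uninjured libraries (log2 fold change -3.26 ± 0.41 (SE), adjusted p = 1.24e-05). No overlap was seen in these 3 genes. FGF and EGF genes rose in 3 and fell in 4 of 23. Fgf2, a growth factor of astroglia, had 14.2, 12.7, 7.32 and 38.8 CPM in the WT SCI libraries, against 1.19, 1.43, 0.735 and 1.54 CPM in the uninjured libraries (log2 fold change 3.87 ± 0.59 (SE), adjusted p = 8.66e-05; 3.23 without animal 9935), with a ratio of 12.7 in WT SCI and 7.18 in uninjured tissue. Etv5 and Spry2, targets of FGF signalling, fell by 1.97 and 1.52. Hippo genes rose in 5 of 18 (median 0.63), and in 3 in the voom fit and 3 without the filter on low counts. Risen Hippo genes numbered 3 without uninjured animal 42 and 2 without WT SCI animal 9935 or uninjured animal 79, 65 or 154. Of 24 transcription factors of astroglial identity and patterning 2 rose and 3 fell, so 19 did not pass. On the 8 WT libraries alone, with DESeq2, in the voom fit and with the ribosomal-read rows removed 5 fell, and at equal depth 1 rose. Risen factors numbered 1 without WT SCI animal 9874 or uninjured animal 42, 65 or 154. Fallen factors numbered 1 without uninjured animal 79 or 65. Olig2, shared with precursors, rose (1.62, adjusted p = 0.00206). Of 25 Hox genes 4 fell (2 of 13 at equal depth) and 1 rose, Hoxb8 (2.07, adjusted p = 0.00604).

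Of 19 glucocorticoid genes 6 rose and 3 fell. Hsd11b1, which regenerates active glucocorticoid from its inert form, had 0.0686, 0.226, 0.872 and 5.21 CPM in the WT SCI libraries, against 26.4, 20.0, 31.8 and 33.7 CPM in the uninjured libraries. Animal 9935 was highest among the injured and still below every uninjured library (log2 fold change -4.67 ± 0.77 (SE), adjusted p = 2.04e-04; -6.54 without 9935 and -4.06 without 9596). Fkbp5, a co-chaperone and target of the glucocorticoid receptor, had 21.3, 7.81, 18.5 and 23.8 CPM in the WT SCI libraries, against 1.34, 2.35, 0.782 and 2.05 CPM in the uninjured libraries (log2 fold change 3.44 ± 0.49 (SE), adjusted p = 5.34e-05). Risen members numbered 3 without uninjured animal 42, 79 or 65. Fallen members numbered 1 without uninjured animal 42, 79, 65 or 154. With the ribosomal-read rows removed or in the voom fit 3 rose, and at equal depth 1 fell. Of 21 thyroid hormone and retinoid genes 6 rose and 4 fell. Aldh1a1, which makes retinoic acid, fell (-1.19, adjusted p = 0.00177), while Crym, a cytosolic thyroid hormone binder, had 3.84, 0.905, 2.27 and 0 CPM in the WT SCI libraries, against 0.00296, 0.0733, 0.0365 and 0.00612 CPM in the uninjured libraries, with overlapping groups (log2 fold change 5.88 ± 1.21 (SE), adjusted p = 0.00144; 5.16 without WT SCI animal 9596 and 6.82 without uninjured animal 154).

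Detoxification genes were mixed as well, with 7 of 29 glutathione genes higher and 5 lower. Gstm1, a glutathione transferase enriched in astrocytes (chr3:108012250-108017973), had 38.9, 64.7, 43.2 and 44.3 CPM in the WT SCI libraries, against 382, 616, 652 and 591 CPM in the uninjured libraries (log2 fold change -3.55 ± 0.28 (SE), adjusted p = 1.23e-07), and Gsta4, which detoxifies lipid peroxidation products, fell by 2.45. The peroxidases Gpx1 and Gpx3 rose by 2.13 and 3.27. Reads of the Gstm paralogs could be shared. Of 24 metal ion genes 7 rose, with Mt1, Mt2 and Mt3 among them, and 4 fell. Ftl1, ferritin light chain, rose (3.85, adjusted p = 4.98e-07) with a ratio of 0.256 in WT SCI and 0.256 in uninjured tissue, and the zinc transporter Slc39a12 fell (-1.64, adjusted p = 7.27e-04) with a ratio of 8.19 in WT SCI and 13.4 in uninjured tissue. Fallen metal ion genes numbered 7 without WT SCI animal 9843. Serine and folate genes fell in 5 of 19, and 1 rose, the mitochondrial folate dehydrogenase Aldh1l2 (3.35, adjusted p = 7.88e-05). Fallen serine and folate genes numbered 1 without uninjured animal 79, 65 or 154 and 2 without WT SCI animal 9843. At equal depth 3 of 12 fell.

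Protein quality control did not move as a block. Integrated stress and unfolded protein genes rose in 6 of 21 and fell in 2. Atf3, a stress-induced transcription factor, rose by 4.59 (adjusted p = 8.06e-05), while Hspa5, the main chaperone of the endoplasmic reticulum, fell (-1.15, adjusted p = 0.0224), though not without uninjured animal 42 (0.0647 as adjusted p) or 154 (0.0536). Fallen stress genes numbered 1 without uninjured animal 42 or 154. Heat shock genes rose in 2 and fell in 2 of 19. Risen heat shock genes numbered 1 without uninjured animal 42 or 154. Fallen heat shock genes numbered 1 without uninjured animal 79, 65 or 154 and 4 without WT SCI animal 9596. Among 20 proteasome genes 5 constitutive subunits fell, such as Psmb7 (-2.07, adjusted p = 8.72e-05) and Psma3 (-1.94, adjusted p = 0.00209). The 3 that rose were the immunoproteasome subunits Psmb8 (2.98, adjusted p = 1.02e-04) and Psmb9 (3.07, adjusted p = 5.79e-04; 2.34 without animal 9596) and the activator subunit Psme1. Circadian clock genes rose in 4 and fell in 2 of 20. Fallen clock genes numbered 1 without uninjured animal 42, 79, 65 or 154 and 4 without WT SCI animal 9935. Hypoxia and vascular genes rose in 1 and fell in 3 of 23. Vegfa, the vascular growth factor, had 1.78, 3.17, 4.53 and 0.652 CPM in the WT SCI libraries, against 10.9, 8.62, 9.57 and 12.04 CPM in the uninjured libraries, lower in every WT SCI library (log2 fold change -1.99 ± 0.46 (SE), adjusted p = 0.00344).

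Cell division genes rose in 23 of 38 (median 1.91), and 14 of the 20 that rose and had a flow-through value were at or above it. At equal depth 12 of 16 rose. Top2a, a topoisomerase of dividing cells, had 9.12, 6.56, 15.2 and 6.19 CPM in the WT SCI libraries, against 0.411, 0.136, 0.866 and 0.722 CPM in the uninjured libraries. All WT SCI libraries were above all uninjured ones (log2 fold change 4.12 ± 0.56 (SE), adjusted p = 3.17e-05), and the ratio was 5.56 in WT SCI and 2.16 in uninjured tissue. Oligodendrocyte precursor markers rose in the same libraries, and their part in this count was not tested. Of 20 p53 targets and cell cycle inhibitors 8 rose (median 0.92), such as Zmat3 (1.51, adjusted p = 8.56e-04), but 4 of 11 at equal depth (median 0.078) and 5 of 18 on the 8 WT libraries alone (median 0.61). Risen genes of this list numbered 5 without uninjured animal 42, 65 or 154 and 4 without uninjured animal 79. Actin and adhesion genes rose in 25 of 38 (median 1.52), with list medians of 1.43, 1.63, 1.16 and 1.41 in animals 9596, 9874, 9843 and 9935, and 12 of the 25 at or above flow-through. Tagln2, an actin-binding transgelin, had 110.1, 79.4, 104 and 68.1 CPM in the WT SCI libraries, against 4.57, 3.88, 6.41 and 5.00 CPM in the uninjured libraries (log2 fold change 4.19 ± 0.30 (SE), adjusted p = 4.30e-08), with a ratio of 1.74 in WT SCI and 1.27 in uninjured tissue. Lcp1, the plastin of leukocytes, rose by 3.35 with a ratio of 0.276 in WT SCI and 0.249 in uninjured tissue. S100 proteins, annexins and galectins rose in 14 of 20 (median 1.70). Lgals3, galectin 3 of phagocytes and reactive glia, had 8.09, 17.4, 15.3 and 21.2 CPM in the WT SCI libraries, against 0.246, 0.408, 0.449 and 0.649 CPM in the uninjured libraries (log2 fold change 5.14 ± 0.44 (SE), adjusted p = 2.93e-07), and its ratio was 0.374 in WT SCI and 14.0 in uninjured tissue.

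Matrix genes rose in 18 of 43 and fell in 3 (median 1.73; 10 of 20 rose at equal depth), with 6 of the 18 at or above flow-through. Spp1, osteopontin, had 63.9, 118, 118 and 37.8 CPM in the WT SCI libraries, against 3.93, 6.10, 4.45 and 4.92 CPM in the uninjured libraries (log2 fold change 4.13 ± 0.42 (SE), adjusted p = 1.40e-06), and Fn1, fibronectin, had 5.90, 51.4, 11.7 and 11.1 CPM in the WT SCI libraries, against 0.689, 0.174, 0.480 and 0.447 CPM in the uninjured libraries (log2 fold change 5.49 ± 0.66 (SE), adjusted p = 7.99e-06; 4.39 without animal 9874), with ratios in WT SCI of 0.282 and 0.541. Sparcl1, hevin, a secreted promoter of synapse formation (chr5:104079108-104114088), fell: it had 288, 369, 236 and 432 CPM in the WT SCI libraries, against 1282, 1279, 1245 and 1355 CPM in the uninjured libraries, without overlap (log2 fold change -1.96 ± 0.25 (SE), adjusted p = 1.41e-05), and its ratio was 5.82 in WT SCI and 7.74 in uninjured tissue. Integrins and laminins rose in 10 of 27 (median 0.97), and in 6 of 14 at equal depth, with list medians of 0.15, 1.30, 0.70 and -0.57 in animals 9596, 9874, 9843 and 9935. The beta chain Itgb5 rose (2.53, adjusted p = 1.26e-05) and the alpha chain Itgav, with which it pairs, fell (-1.09, adjusted p = 0.0108), though not in the voom fit (adjusted p = 0.0528). Fallen matrix genes numbered 1 without WT SCI animal 9843 or 9596 or uninjured animal 79, 65 or 154. Fallen integrins and laminins numbered 2 without WT SCI animal 9874. Synapse-modifying genes of astrocytes rose in 5 and fell in 6 of 21. Risen synapse-modifying genes numbered 3 without WT SCI animal 9935 or uninjured animal 42, 65 or 154 and 2 without uninjured animal 79.

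The translation machinery itself was counted too. Of 79 ribosomal protein genes 35 rose and 9 fell (median 0.50), and the list medians were 0.48, 0.82, 0.73 and -0.011 in animals 9596, 9874, 9843 and 9935. Each of the 35 was below flow-through in WT SCI. So was every other tested member with a ratio, and the ratios of the list ran from 0.265 to 0.771. Rpsa, a protein of the small subunit, had 335, 513, 629.6 and 498 CPM in the WT SCI libraries, against 27.1, 38.9, 56.2 and 54.2 CPM in the uninjured libraries (log2 fold change 3.49 ± 0.33 (SE), adjusted p = 8.44e-07), and Rpl36 of the large subunit fell (-2.30, adjusted p = 3.20e-04). Reads of these genes can be shared with processed pseudogenes, so their counts are uncertain. Long noncoding RNAs known mainly from the nucleus rose in 4 of 10 and fell in 1 (Rmst, a call that was lost without any 1 of the 4 uninjured animals). Malat1 had 1042, 518, 1363 and 596 CPM in the WT SCI libraries, against 418, 226, 142 and 108 CPM in the uninjured libraries (log2 fold change 1.98 ± 0.40 (SE), adjusted p = 0.00134), and its HA IP over flow-through ratio was 0.349 in WT SCI and 0.377 in uninjured tissue.

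The Rn45s share was set against these results in 4 ways. With the 3 ribosomal-read rows removed before scaling, 2263 genes were higher and 1789 lower of 13730 tested. With these rows removed and, in addition, every HA IP library thinned at random to 620265 counts, 1699 were higher and 1091 lower of 9515 tested. Of the 3938 genes called at full depth 3000 could be tested at equal depth, and all 3000 kept their direction, 2615 of them past the threshold. The others, 450 called lower and 488 called higher, did not enter that test. The 488 include the 3 ribosomal-read rows, which had been removed. Thinned counts are a draw from the same counts, so most directions would be kept in any case. The thinned fit addresses depth alone and cannot tell the share apart from injury. At equal depth Bst2 had a log2 fold change of 6.03 (adjusted p = 2.50e-08), Kcne1l 2.86 (adjusted p = 4.22e-06), Insig1 -2.83 (adjusted p = 3.13e-06), Gja1 -1.97 (adjusted p = 3.01e-05) and Axin2 4.28 (adjusted p = 8.98e-07). Kcne1l was named on the condition of passing at equal depth, so its passing here is no check. Bst2 and Insig1 met that condition too, and were also named by a small p in their lists. A further fit used as covariate the log2 share of counts outside the 3 ribosomal-read rows, centred within each group. In it 2327 genes were higher and 2122 lower. Being centred, this covariate cannot adjust for the difference in share between the groups.

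The WT SCI animals were also read in order of their share. The cholesterol synthesis median was lowest in animal 9935, which had the highest share, at -2.33, and -1.75 in animal 9596, which had the lowest. The interferon, lysosome and ribosomal protein medians were lowest in animal 9935, at 2.25, 0.65 and -0.011, and highest in animal 9874 (interferon and ribosomal proteins) or 9843 (lysosome). The glutamate and GABA uptake medians were -1.83, -0.95, -0.86 and -0.47 in rising order of share. With 4 animals no trend was tested. The prior count of 2 is scaled to library size, so it pulls ratios of genes with low CPM towards 0 in every library. Fold changes also leaned on transcript length: the median was -0.13 in the shortest of 5 equal length classes and 0.20 in the longest.

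**Figure D5:**
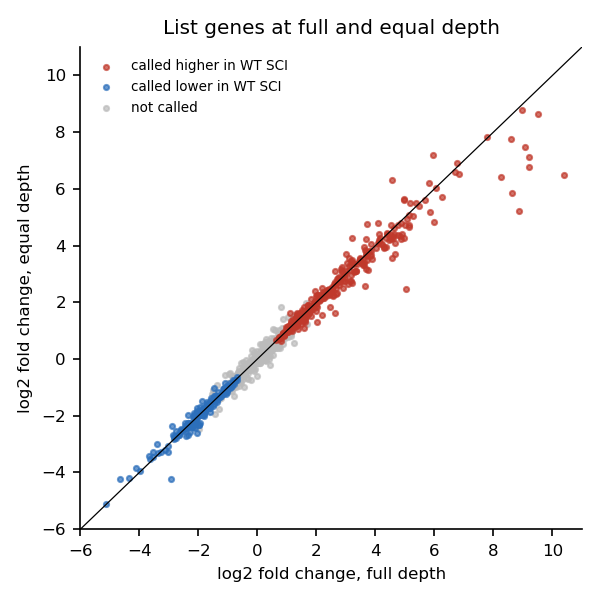
Log2 fold change, WT SCI minus uninjured, of 950 gene list members at full depth (x) and after every library was thinned to 620265 counts (y); each point is a gene, red if called higher, blue if called lower and grey if not called at full depth, and the line marks equal values. All 507 called members shown kept their direction, and the thinned counts are a draw from the same counts.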

How the data were processed

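Per the labels' protocols, RNA of HA immunoprecipitates and flow-through was made into cDNA with the Nugen Ovation kit and sequenced as paired-end libraries. The authors deposited raw counts per gene for 24060 rows. The submitters' processing notes name CASAVA 1.8.2, edgeR and the mm10 build. Which aligner, counter and strand setting were used is not given in the sources used here, so reads of paralogs, pseudogenes and overlapping or antisense genes may be shared. Of 27 rows whose symbol had become a date, 25 were given back a symbol, and a further 149 per-sample columns were left unused.

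The 11 HA IP libraries were fitted together with edgeR 4.0.16 (R 4.3.3; filterByExpr with a minimum count of 10, TMM, quasi-likelihood test, two-sided, Benjamini-Hochberg adjustment, threshold 0.05), with the contrast WT SCI minus uninjured. P-values measure the spread between these animals. HA IP over flow-through ratios and marker sums used CPM on totals without Rn45s, Lars2 and Mir6236. Tables and figures used Python 3.11.15, pandas 2.3.3, numpy 2.4.6, SciPy 1.17.1 and matplotlib 3.10.9. The procedure was tested on simulated data without the 3 ribosomal-read rows, with 1 spread for all genes and groups and 200 genes changed. In the real data the biological coefficient of variation was 74.7% in WT SCI and 24.1% in uninjured libraries. The simulated rates need not hold for it. True log2 changes of 1 and -1 were called in 1 of 50 and 0 of 50 genes. Changes of 2 and -2 were called in 23 of 50 and 17 of 50, and 0 of 13388 unchanged genes were called. A gene that did not pass is thus not shown to be unchanged.

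Named genes were the 10 rises and 10 falls with the highest fold among genes called at full and equal depth whose mean log2 CPM was at least 3 and whose groups did not overlap, leaving out best-known reactive genes; 10 more each way among genes at least 4 times as abundant in HA IP as in flow-through; and the 2 called members per direction with the smallest p in each list. Some of these genes are not reported here. The members and lists were chosen with earlier results of these data known. Alternatives were RLE scaling, no filter, removal of the 3 ribosomal-read rows, thinning to 620265 counts, the 8 WT libraries alone and DESeq2 1.42.0. Others were the share covariate centred within each group and leaving out each WT library. A limma 3.58.1 voom fit with a variance for each group was added after the data were seen.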

Additional observations from a re-analysis of the deposited data

Results flagged for a closer look

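In 22 of 374 groups of 4 libraries, 1 library stood apart from the other 3 by Dixon's test. About 1 group in 20 would be marked by chance, and 17 of the 22 were in WT SCI. No cause was tested. Values are TMM-adjusted CPM.

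In the library of WT SCI animal 9596 the values that stood apart were Rab11fip5 (715, highest, against 10.4 to 34.0), Insig1 (12.1, highest, against 5.77 to 6.63), Slc12a2 (63.2, highest, against 35.2 to 39.8), Psma3 (8.02, highest, against 2.79 to 3.26) and Pdgfra (31.4, lowest, against 42.4 to 42.9). The library of WT SCI animal 9935 stood apart for Ppfibp1 (95.5, highest, against 39.2 to 48.6), Hsd11b1 (5.21, highest, against 0.0686 to 0.872) and Cldn11 (212, highest, against 116 to 129). In the library of WT SCI animal 9874 the values that stood apart were Gapdh (158, highest, against 89.3 to 96.9), Apod (1017, highest, against 588 to 648), H2-Ab1 (20.9, highest, against 3.26 to 4.88), Fn1 (51.4, highest, against 5.90 to 11.7), Ndrg1 (178, highest, against 92.9 to 105), Cd163 (0.113, highest, against 0 to 0), Nkg7 (0.792, highest, against 0 to 0) and Kdr (1.92, highest, against 0 to 0.0686). The library of WT SCI animal 9843 stood apart for Tgfbr1 (64.2, highest, against 21.5 to 28.2). In the library of uninjured animal 65 the values that stood apart were Slc12a2 (12.4, lowest, against 16.01 to 16.6). The library of uninjured animal 79 stood apart for Nkx6-2 (3.03, highest, against 1.60 to 1.79) and Ndrg1 (43.3, highest, against 30.4 to 32.1). In the library of uninjured animal 42 the values that stood apart were Rmst (2.57, highest, against 1.13 to 1.35) and Nkg7 (0.0325, highest, against 0 to 0.00349).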

How the results depend on the processing

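The number of genes called stayed within 1.5 times under every alternative run, except the number lower when uninjured animal 65 or 154 was left out (1059 and 1043). Leaving out each library in turn gave 1043 to 1774 genes lower and 1637 to 2437 higher. The split of higher and lower was 2326 and 1617 with RLE scaling, 2460 and 1618 without the filter, 2783 and 2145 with DESeq2 and 1850 and 1673 with the voom fit added after seeing the data. Without WT SCI animal 9874, the log2 fold changes of Nkg7 and Kdr, which were positive, were -3.41 (adjusted p = 0.697) and -0.62 (adjusted p = 0.821), and the cause was not tested. Over all libraries left out in turn, Nkg7 ranged from -3.41 to 6.25 and Kdr from -0.62 to 3.57. Thinning moved the median of all genes by 0.13 and the voom fit had a median of -0.17. No paired analysis was possible because injured and uninjured groups hold different animals and share no replicate number. Depth limits genes with few counts in WT SCI, where 620265 to 2691494 counts remained.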

Other observations

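Several genes outside the lists were among the highest changes. Rab11fip5, an adaptor of recycling endosomes, had 715, 34.0, 10.99 and 10.4 CPM in the WT SCI libraries, against 8.60, 8.28, 6.66 and 6.15 CPM in the uninjured libraries. Animal 9596 decided its value: the log2 fold change was 4.70 (adjusted p = 0.00178) with it and 1.34 (adjusted p = 0.0244) without it. Vsnl1, a neuronal calcium sensor, had 14.9, 3.73, 14.8 and 9.12 CPM in the WT SCI libraries, against 98.4, 124, 87.1 and 83.5 CPM in the uninjured libraries (log2 fold change -3.20 ± 0.38 (SE), adjusted p = 8.02e-06), with an HA IP over flow-through ratio of 0.280 in WT SCI and 0.174 in uninjured tissue. Thrsp, a regulator of lipogenesis known from liver, had 4.59, 3.51, 5.23 and 3.58 CPM in the WT SCI libraries, against 25.5, 26.3, 36.9 and 35.7 CPM in the uninjured libraries (log2 fold change -2.87 ± 0.35 (SE), adjusted p = 8.91e-06; ratio 1.22 in WT SCI and 3.77 in uninjured tissue).

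Among falls of genes at least 4 times as abundant in HA IP as in flow-through in uninjured tissue, Oat, ornithine aminotransferase, had 4.66, 7.81, 2.96 and 11.1 CPM in the WT SCI libraries, against 28.6, 29.2, 39.8 and 42.6 CPM in the uninjured libraries (log2 fold change -2.44 ± 0.36 (SE), adjusted p = 6.66e-05). Lcat, which esterifies cholesterol on lipoproteins, had 5.83, 12.6, 3.84 and 3.91 CPM in the WT SCI libraries, against 30.1, 34.0, 42.6 and 34.5 CPM in the uninjured libraries (log2 fold change -2.40 ± 0.50 (SE), adjusted p = 0.00153). Apln, the ligand apelin, had 11.5, 3.51, 3.31 and 10.8 CPM in the WT SCI libraries, against 43.3, 29.7, 39.5 and 38.3 CPM in the uninjured libraries (log2 fold change -2.39 ± 0.41 (SE), adjusted p = 2.84e-04). No overlap between the groups was a condition for naming these 3 genes, so it is not a further result. Ahcyl1, a regulator of inositol trisphosphate receptors, and Tmc7, a transmembrane channel-like protein, fell by 2.51 (adjusted p = 1.40e-06) and 2.36 (adjusted p = 3.64e-04) on the log2 scale.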
